A study of Mus musculus with 12 samples.

Results

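The cadherins and non-clustered protocadherins form a set of 33 of the 24489 genes counted in single cells of the developing mouse cochlea. A gene was taken when its symbol was Cdh or Pcdh followed by a number, which gave 22 cadherins and 11 protocadherins. The hair bundle genes Cdh23 and Pcdh15 and the clustered Pcdha, Pcdhb and Pcdhg genes were left out. By family, 5 members were type I classical cadherins (Cdh1, Cdh2, Cdh3, Cdh4 and Cdh15) and 13 were type II classical cadherins (Cdh5 to Cdh12, Cdh18, Cdh19, Cdh20, Cdh22 and Cdh24). A further 4 were other cadherins (Cdh13, Cdh16, Cdh17 and Cdh26), 4 were delta-1 protocadherins (Pcdh1, Pcdh7, Pcdh9 and Pcdh11x), 5 were delta-2 protocadherins (Pcdh8, Pcdh10, Pcdh17, Pcdh18 and Pcdh19), and Pcdh12 and Pcdh20 were kept apart.

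Classical cadherins span the cell membrane and bind cadherins of the neighbouring cell in the presence of calcium, while their tails hold beta-catenin, alpha-catenin and p120-catenin and through them the actin skeleton. Developing neuron groups often carry particular combinations of type II cadherins, and Cdh2 and Cdh4 are widespread in neural tissue. Cdh13 lacks the catenin-binding tail and is tethered to the membrane by a lipid anchor. Delta-protocadherins adhere more weakly, and several delta-2 members bind the WAVE complex, which drives actin branching. In the cochlea, spiral ganglion neurons (SGNs) connect hair cells with the brainstem. Type I neurons, divided into Ia, Ib and Ic, contact inner hair cells (IHCs), and type II neurons contact outer hair cells (OHCs). Glia ensheath these neurons, and the otic mesenchyme (OM) surrounds the epithelium.

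The study followed the emergence of the neuron types from E14.5, in days of embryonic life, to P3, in days after birth. tdTomato-positive cells were sorted from dissected cochleae into plates of 384 wells, and 1 plate was 1 sample and 1 replicate here. There were 2 plates at E14.5, 2 at E15.5, 3 at E16.5, 1 at E17.5, 2 at E18.5 and 2 at P3. All were labelled PVcre;Ai14, a Cre driven by the parvalbumin gene together with a Cre-dependent tdTomato reporter, except E14.5 replicate 2, which was labelled TrkCcre, a Cre driven by Ntrk3. The study's methods name the Ntrk3 driver for E14.5 as a whole, so the driver of E14.5 replicate 1 is given differently by its label. A reporter of this kind shows only cells in which the driver has been active, and each plate pooled animals, so that p-values measure the spread between plates. The plates also came in series: E14.5, E15.5, E17.5 and E16.5 replicate 3 in 1 series, E16.5 replicates 1 and 2 in another, E18.5 in a further one, and P3 in an earlier study. Only E16.5 was present in more than 1 series, and for E18.5 and P3 the series and the age cannot be told apart.

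After filtering, 4226 of 4608 wells were kept, with 80997594 to 303906928 counts a plate and a median of 232473 to 1092427 counts a cell. Clusters were named from marker genes, and the word "-like" marks that the names were rebuilt. The SGN-like class held 2269 cells. Its defining markers summed to 10083 to 13370 CPM, the usual unit of counts scaled to the total of the class sum, in every plate. The glia-like and OM-like sums of E16.5 replicates 1 and 2 held only 5 to 19 cells and stood apart: neuronal markers reached 5250 to 7387 CPM there, against 38 to 159 CPM in the glia-like and OM-like sums of the other 6 plates from E14.5 to E17.5. In SGN-like sums, glial markers rose with the plate series, from 17.0 to 103 CPM in the series that holds E14.5, through 554 and 626 CPM in E16.5 replicates 2 and 1, to 2336 and 2341 CPM at E18.5 and 2819 and 3230 CPM at P3. The part of this glial RNA in the results was examined by leaving out the 912 SGN-like cells whose glial marker level exceeded 10% of the median of glia. These were 407 of 660 SGN-like cells at E18.5 (61.67%) and 385 of 501 at P3 (76.85%), against at most 15.48% at the other stages. Fits without them rest on far fewer cells at E18.5 and P3, and the part of this in lost calls was not tested. Cells under the limit can still hold some glial RNA.

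A few members led each class. Per kilobase of exon, so that genes can be compared, Cdh2 led the SGN-like class at E14.5 (63.1 ± 0.388 CPM per kb, SD, n = 2 plates), Cdh4 led at E15.5 (75.7 ± 12.4) and Cdh9 led at P3 (25.2 ± 0.131), with Pcdh9 and Cdh4 at 60.3 ± 29.0 and 59.2 ± 4.60 CPM per kb in the 3 plates of E16.5. The glia-like class was led by Cdh2 (80.0 ± 12.3) and Cdh19 (58.6 ± 6.95) at E14.5, and the OM-like class by Cdh11 (127.8 ± 3.20) and Pcdh18 (77.5 ± 7.18). At E18.5, OHC-like cells were led by Cdh1 (138 ± 19.9) and IHC-like cells by Cdh2 (51.0 ± 14.4). Summed over the 33 members, the SGN-like level was 1289 ± 128 CPM at E14.5, 1445 ± 226 at E15.5, 1366 ± 230 at E16.5, 869.9 in the plate of E17.5, 906 ± 6.70 at E18.5 and 533 ± 10.1 CPM at P3. The 2 P3 plates were the lowest and did not overlap with any other stage.

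The number of members found in a cell moved with the plate series. With each cell thinned to 100000 counts, SGN-like cells held a mean of 5.35 and 5.40 members at E14.5 and 6.39 in E16.5 replicate 3, but 9.54 and 9.25 in E16.5 replicates 1 and 2, 11.1 and 10.9 at E18.5 and 8.71 and 8.74 at P3. Glia-like cells of E16.5 replicates 1 and 2 also held more members than those of replicate 3, 11.2 in replicate 1 against 5.06. Counts of members per cell are therefore not compared between stages below.

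The 33 members lie on 10 chromosomes of GRCm38 (mm10). Chromosome 8 carries 8 members, and chromosomes 14 and 15 carry 5 each. Pcdh17 (chr14:84443563-84539002, plus strand), Pcdh20 (chr14:88464743-88471396, minus strand) and Pcdh9, separated by 3.93 and 4.54 Mb, follow each other on chromosome 14. Cdh9 (chr15:16728756-16857094, plus strand) lies between Cdh6 and Cdh10. Cdh3 and Cdh1 are neighbours on chromosome 8, 46.1 kb apart, and Cdh7 and Cdh19 lie 0.75 Mb apart on chromosome 1. Of these neighbours, Cdh3 and Cdh1 were both higher in OHC-like than in IHC-like cells. In glia-like against SGN-like sums they were called in opposite directions, with log2 fold changes of 3.69 ± 1.37 (SE) for Cdh1 and -4.38 ± 1.24 (SE) for Cdh3. Cdh7 was highest in Ic-like neurons among the late neuron types, and Cdh19 was higher in glia than in neurons.

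The stretches just before the start of 5 members whose levels carry the results below are shown, from RefSeq windows of GRCm38.p6, 5′ to 3′, with each CCAAT or its reverse ATTGG in capitals. These letters are the core of a common promoter element bound by NF-Y, and they were added to the search after the windows had been read.
Cdh9, chr15:16728665-16728755, plus strand: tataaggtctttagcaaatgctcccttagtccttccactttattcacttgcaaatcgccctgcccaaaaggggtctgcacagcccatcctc
Pcdh17, chr14:84443313-84443562, plus strand: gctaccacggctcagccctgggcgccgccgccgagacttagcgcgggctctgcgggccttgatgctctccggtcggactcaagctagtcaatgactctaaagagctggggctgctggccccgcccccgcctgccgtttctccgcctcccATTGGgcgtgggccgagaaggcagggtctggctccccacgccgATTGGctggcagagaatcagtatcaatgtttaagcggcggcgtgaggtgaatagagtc
Pcdh20, chr14:88471397-88471646, minus strand: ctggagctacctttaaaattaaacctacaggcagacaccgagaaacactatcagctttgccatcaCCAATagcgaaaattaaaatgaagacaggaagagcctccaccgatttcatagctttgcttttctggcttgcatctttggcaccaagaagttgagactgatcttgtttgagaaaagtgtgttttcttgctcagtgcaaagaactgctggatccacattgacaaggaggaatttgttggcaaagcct
Pcdh9, chr14:93890680-93890929, minus strand: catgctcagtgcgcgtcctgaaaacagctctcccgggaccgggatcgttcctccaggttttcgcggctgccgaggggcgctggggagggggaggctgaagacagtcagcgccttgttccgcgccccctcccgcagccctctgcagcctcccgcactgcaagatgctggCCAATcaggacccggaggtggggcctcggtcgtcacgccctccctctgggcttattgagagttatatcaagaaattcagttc
Pcdh18, chr3:49757326-49757566, minus strand: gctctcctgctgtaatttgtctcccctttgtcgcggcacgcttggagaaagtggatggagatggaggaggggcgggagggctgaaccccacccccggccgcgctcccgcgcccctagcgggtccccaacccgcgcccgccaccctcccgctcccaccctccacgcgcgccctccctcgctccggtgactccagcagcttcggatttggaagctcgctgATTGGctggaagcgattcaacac

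The window of Pcdh17 held 2 such matches, those of Pcdh20, Pcdh9 and Pcdh18 held 1 each, and the shorter window of Cdh9, 91 bases, held none. Among all 32851 windows, 33.8% of those cut to 250 bases, 33.1% of those cut to 241 bases and 12.3% of those cut to 91 bases held at least 1 match on either strand. Each cut kept the first bases of the RefSeq window. For other genes the cut of 91 bases need not lie next to the gene start, as it does for Cdh9. The windows of Pcdh17, Pcdh9 and Pcdh18 were rich in CpG (21, 18 and 22 CpG, GC 64.8%, 63.6% and 67.6%), and those of Pcdh20 and Cdh9 were not (3 and 1 CpG, GC 42.4% and 48.4%). The median window of 250 bases has 6 CpG and 52.4% GC, and that of 91 bases, the length of the Cdh9 window, has 2 CpG and 50.5% GC. A further 4 motifs were searched on both strands and had no match in the 5 windows: the E-box CAGCTG, in 13% of all windows of 250 bases, the E-box CATCTG, in 14.4%, the Runx motif TGTGGT, in 14%, and the Gata motif AGATAA, in 9.99%. Promoter windows were found for 20 of the 33 members.

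How the set changed as neurons matured was asked first, by comparing SGN-like sums between stages. The clearest course was that of Cdh9, a type II cadherin that takes part in synapse formation elsewhere in the nervous system. Cdh9 had no count in either E14.5 plate. It was 1.11 and 0.195 CPM at E15.5, 7.93, 7.80 and 4.32 CPM at E16.5, 21.4 CPM at E17.5, 28.7 and 32.2 CPM at E18.5 and 89.6 and 88.9 CPM at P3. Each stage lay above all plates of the stage before it. With 3 counts over both E14.5 plates as the floor, the rise to E16.5 was at least 84.7-fold (adjusted p = 0.000439). It went on to E18.5 (log2 fold change 2.18 ± 0.38 (SE), adjusted p = 0.0123) and to P3 (log2 fold change 1.84 ± 0.43 (SE), adjusted p = 0.0115). The share of SGN-like cells with a Cdh9 count, after thinning, was 20.1%, 20.9% and 9.09% at E16.5 and 71.8% and 64.0% at P3.

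Cdh2 and Cdh4, both type I classical cadherins, were lowest at P3. Cdh2, the N-cadherin of neural tissue, was 312 and 314 CPM at E14.5, 142.6, 143.7 and 176 CPM at E16.5, 142.9 and 144.6 CPM at E18.5 and 58.4 and 68.5 CPM at P3. It fell 2.07-fold from E14.5 to E16.5 (log2 fold change -1.05 ± 0.12 (SE), adjusted p = 0.000316) and again from E18.5 to P3 (log2 fold change -0.90 ± 0.13 (SE), adjusted p = 0.000773). The E16.5 and E18.5 plates overlapped. Cdh4, the retinal cadherin, was 191 and 323 CPM at E14.5, 574 and 455 CPM at E15.5, 423, 418 and 366 CPM at E16.5, 173 and 171 CPM at E18.5 and 42.0 and 33.6 CPM at P3. After E16.5 it fell in each step without overlap, first to E18.5 (log2 fold change -1.21 ± 0.20 (SE), adjusted p = 0.00922) and then to P3 (log2 fold change -1.90 ± 0.22 (SE), adjusted p = 0.000207). Within the earliest stage, Cdh4 was low in unspecialized SGN-like cells, 36.2 and 31.8 CPM at E14.5, and 531 and 434 CPM at E15.5. Cdh2 was high there, 507 and 524 CPM at E14.5. These unspecialized values were chosen after they were seen and were not tested.

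Pcdh17, a delta-2 protocadherin that the study discusses, was highest at the start. SGN-like sums held 205 and 122 CPM at E14.5, 69.9, 67.4 and 38.4 CPM at E16.5, 29.0 and 29.4 CPM at E18.5 and 5.87 and 1.69 CPM at P3. The E14.5 plates were above all later plates, and the P3 plates were below all others. The fall was called from E14.5 to E16.5 (log2 fold change -1.51 ± 0.44 (SE), adjusted p = 0.0441) and from E18.5 to P3 (log2 fold change -2.64 ± 0.52 (SE), adjusted p = 0.00402), and missed the threshold between E16.5 and E18.5 (-0.99 ± 0.46, adjusted p = 0.292). The first of these calls held in 4 of the 12 fits that left out 1 plate, and without E14.5 replicate 1 the value was -1.04 ± 0.54, adjusted p = 0.247. In unspecialized SGN-like cells Pcdh17 was 532 and 452 CPM at E14.5, 95.6 and 118 CPM at E15.5 and 82.8, 89.8 and 90.1 CPM at E16.5.

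From E14.5 to E16.5, 6 of the 32 members tested were called, 3 higher and 3 lower, beside 14.8% of all genes (8.82% higher and 6% lower). The median log2 fold change was 0.51 over the members and 0.07 over all genes. Cdh6, a type II cadherin, fell from 69.9 and 50.9 CPM to 15.9, 9.47 and 1.297 CPM without overlap (log2 fold change -2.76 ± 0.65 (SE), adjusted p = 0.0186), a call lost without E14.5 replicate 1 or E16.5 replicate 2 (adjusted p up to 0.0758). Pcdh20 rose from 4.81 and 0.568 CPM to 34.6, 35.8 and 19.5 CPM (log2 fold change 3.43 ± 1.03 (SE), adjusted p = 0.0484), a call that held in 5 of the 12 fits that left out 1 plate. Cdh19, a type II cadherin of the Schwann cell lineage, was 0.115 and 0 CPM and then 6.70, 7.76 and 0.0618 CPM, so the groups overlapped through E16.5 replicate 3 (log2 fold change 6.30 ± 1.68 (SE), adjusted p = 0.0310), and the call held in 6 of the 12 fits that left out 1 plate. Its high plates were those with glial markers above 500 CPM, and without cells holding glial RNA the value was 1.55 ± 2.09, adjusted p = 0.690.

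Because 2 of the 3 E16.5 plates came from another series, the comparison was also made within 1 series and with the series as a term. With the series as a term, 1 member was called higher and 5 lower, and the share of all genes called in that fit is not given here. Within the series of the E14.5 plates alone, Pcdh17 was -2.10 ± 0.41, adjusted p = 0.0432, Cdh6 -5.55 ± 0.61, adjusted p = 0.00820, and Cdh2 -0.84 ± 0.17, adjusted p = 0.0473. Cdh9 was above its floor in the E16.5 plate of that series but missed the threshold there (adjusted p = 0.0534), and passed it with the series as a term (adjusted p = 0.0358). Neither Pcdh20 (2.83 ± 1.77, adjusted p = 0.551) nor Cdh19 (0.06 ± 3.33, adjusted p = 1) was called within that series. The falls of Cdh2, Cdh6 and Pcdh17 were thus also seen within a series, and the rise of Cdh19 was not.

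From E16.5 to E18.5, 4 of 32 members were called, 2 in each direction, beside 5.23% of all genes (2.89% higher and 2.34% lower). Besides Cdh9 and Cdh4 these were Pcdh7, a delta-1 protocadherin, and Cdh11. Pcdh7 fell slightly, from 59.7, 62.0 and 66.9 CPM to 42.7 and 38.5 CPM (log2 fold change -0.61 ± 0.12 (SE), adjusted p = 0.0206). Cdh11, a mesenchymal type II cadherin, was 8.98, 7.15 and 0.927 CPM and then 43.7 and 40.7 CPM (log2 fold change 2.86 ± 0.65 (SE), adjusted p = 0.0307). Without cells holding glial RNA its value turned to -1.36 ± 0.88, adjusted p = 0.569, while Cdh9 stayed at 2.43 ± 0.38, adjusted p = 0.00672 and Cdh4 at -1.04 ± 0.23, adjusted p = 0.0298. None of the 4 calls passed the threshold when either E18.5 plate was left out. Cdh11 also lost its call without E16.5 replicate 1 or 2 or either P3 plate. For Cdh9 the adjusted p without either E18.5 plate was 0.101 or 0.127.

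From E18.5 to P3, 9 of 32 members were called, 3 higher and 6 lower, beside 24.7% of all genes (12.8% higher and 12% lower). The members' median was -0.19 against -0.09 for all genes. The falls were those of Pcdh17, Pcdh9, Cdh4, Cdh24, Cdh13 and Cdh2. Pcdh9, a delta-1 protocadherin, fell from 166.5 and 173 CPM to 39.1 and 26.8 CPM (log2 fold change -2.08 ± 0.52 (SE), adjusted p = 0.0140) and Cdh13 from 22.3 and 22.3 CPM to 9.39 and 5.69 CPM (log2 fold change -1.27 ± 0.38 (SE), adjusted p = 0.0308). The SGN-like sum mixes neuron types, and Cdh13 fell in Ic-like but not in Ia-like sums (means of 11.9 CPM at E18.5 and 14.9 CPM at P3 in Ia-like). Cdh24, a low type II cadherin, was 5.17 and 3.61 CPM and then 0.961 and 1.19 CPM (-1.74 ± 0.51, adjusted p = 0.0299). The rises were those of Cdh9, of Cdh18 (9.48 and 9.23 CPM to 15.97 and 23.4 CPM, 1.36 ± 0.45, adjusted p = 0.0495) and of Cdh1. Cdh1, the epithelial E-cadherin, also found in Schwann cells, was 0.406 and 0.552 CPM and then 5.96 and 10.6 CPM (4.39 ± 1.18, adjusted p = 0.0229). In SGN-like cells without glial RNA the value of Cdh1 was -0.41 ± 1.89, adjusted p = 0.915 and that of Pcdh9 -1.46 ± 0.64, adjusted p = 0.123, while Cdh9 (1.83 ± 0.42, adjusted p = 0.00945), Cdh4 and Cdh2 (-0.95 ± 0.15, adjusted p = 0.000939) kept their calls. Leaving out any single plate of E18.5 or P3 took the calls of Cdh9, Cdh1, Cdh24 and Cdh18 below the threshold, and that of Cdh18 held in only 4 of the 12 fits that left out 1 plate. Pcdh9 and Cdh13 lost their calls without either E18.5 plate or P3 replicate 2 (adjusted p up to 0.111 and 0.200). The fold changes kept their signs. With no scaling between sums, the median of all genes moved by -0.286. The members called became 2 higher and 7 lower, with no all-gene share given beside them. Relative to that median, the directions named here held, and Cdh18 lost its call (1.07 ± 0.45, adjusted p = 0.110).

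**Figure D1:**
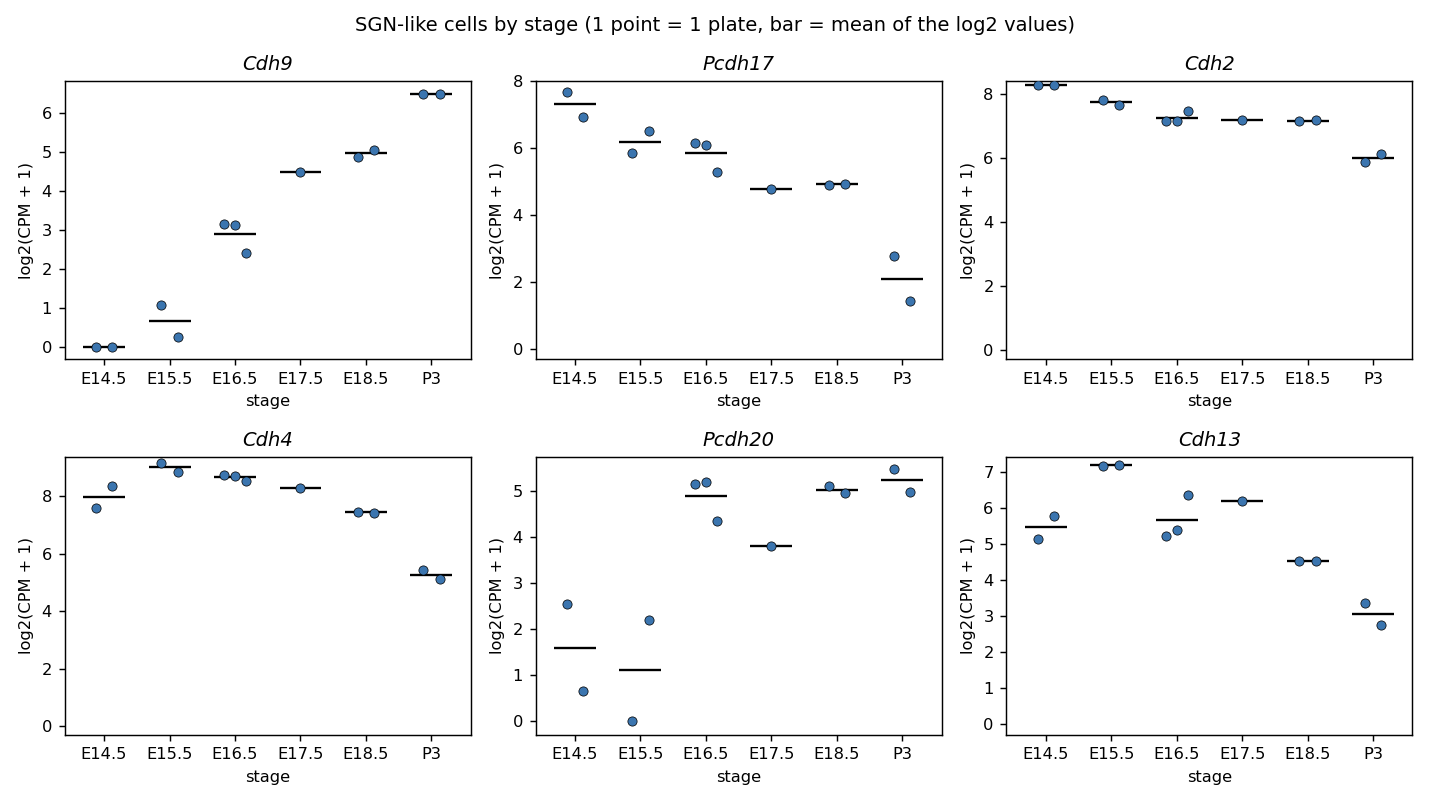
Levels of Cdh9, Pcdh17, Cdh2, Cdh4, Pcdh20 and Cdh13 in SGN-like sums by stage, as log2(CPM + 1), where each point is 1 plate and each bar the mean of the log2 values. Cdh9 climbs from 0 in both E14.5 plates to near 89 CPM in both P3 plates, while Cdh2, Cdh4 and Pcdh17 end at their lowest.

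Which members separate neurons, glia and mesenchyme was asked over the 8 plates from E14.5 to E17.5, with the stage as a covariate. Glia-like sums differed from SGN-like sums in 21 of 28 members tested, 10 higher and 11 lower, beside 54.9% of all genes (28.6% higher and 26.3% lower). In the type II family, 6 of 12 tested were higher in glia and 4 lower, and in the type I classical family 1 of 5 was higher and 3 were lower. Cdh19 led the glial side, with 65.9 to 249 CPM with a median of 201 in glia-like sums and 0 to 7.76 CPM with a median of 0.495 in SGN-like sums. The groups did not overlap (log2 fold change 8.01 ± 1.32 (SE), adjusted p = 4.40e-05). Cdh20, a type II cadherin of the neural crest, was low but higher in glia, 0 to 14.96 CPM with a median of 4.95 (log2 fold change 4.91 ± 1.17 (SE), adjusted p = 0.00137), and its plates overlapped with the SGN-like ones. Pcdh18 was 26.1 to 77.7 CPM with a median of 36.2 in glia and 0 to 5.78 CPM with a median of 1.35 in neurons, again without overlap (log2 fold change 4.41 ± 0.66 (SE), adjusted p = 1.63e-05). Among the stronger glial members by level, Cdh2 was not called: it was 116 to 439.5 CPM with a median of 290.4 in glia and 142.6 to 314 CPM with a median of 189.9 in SGN-like sums.

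On the neuronal side, Cdh4 was 191 to 574 CPM with a median of 392 in SGN-like sums and 0.544 to 230.0 CPM with a median of 6.04 in glia-like sums (log2 fold change -4.79 ± 1.02 (SE), adjusted p = 0.000524). Its highest glial values, 203 and 230.0 CPM, were those of E16.5 replicates 1 and 2, whose glia-like sums held neuronal RNA. Through those plates the groups overlapped, and the other glia-like sums did not exceed 9.88 CPM. Cdh13 was 34.5 to 147 CPM with a median of 63.4 in SGN-like and 0.0188 to 35.0 CPM with a median of 1.75 in glia-like sums (log2 fold change -4.16 ± 0.97 (SE), adjusted p = 0.00120). Cdh12 (-4.66 ± 1.20, adjusted p = 0.00257), Cdh3 (-4.38 ± 1.24, adjusted p = 0.00522), Cdh18 (-4.34 ± 1.44, adjusted p = 0.0150), Cdh22 (-4.32 ± 1.50, adjusted p = 0.0195) and Cdh15 (-4.04 ± 1.20, adjusted p = 0.00724) were lower in glia as well. Of these, Cdh12, Cdh18 and Cdh22 are brain type II cadherins, Cdh3 is the placental cadherin and Cdh15 the muscle cadherin. The call of Cdh22 was lost without either E14.5 plate (adjusted p up to 0.0565). Without E16.5 replicates 1 and 2, 11 members were higher and 11 lower, with no all-gene share given for that fit. Cdh4 was then -6.18 ± 0.69, adjusted p = 1.93e-06, Cdh13 -6.06 ± 0.90, adjusted p = 3.45e-05 and Cdh18 -9.09 ± 0.72, adjusted p = 5.66e-08. Pcdh17 was close to the threshold (-1.20 ± 0.49, adjusted p = 0.0426) and was not called without those plates (-1.37 ± 0.65, adjusted p = 0.0822) or with the plate as a block (-1.18 ± 0.53, adjusted p = 0.0697). Its call held in 2 of the 8 fits that left out 1 plate, with -0.76 without E14.5 replicate 1. Cdh9 was not called (-1.96 ± 1.37, adjusted p = 0.237).

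OM-like sums differed from SGN-like sums in 13 of 28 members, 7 higher and 6 lower, beside 55.5% of all genes (28.3% higher and 27.2% lower). Cdh11 and Pcdh18 were the mesenchymal members by level. Cdh11 was 179.8 to 958 CPM with a median of 677 in OM-like sums, against 0.927 to 26.9 CPM with a median of 5.50 in SGN-like sums (log2 fold change 6.30 ± 0.63 (SE), adjusted p = 1.91e-07). Pcdh18 was 123 to 427 CPM with a median of 348.8 in OM-like sums (log2 fold change 7.32 ± 0.75 (SE), adjusted p = 2.43e-07). For both, each OM-like plate lay above each SGN-like and each glia-like plate. Pcdh19, a delta-2 protocadherin, was 42.3 to 92.5 CPM with a median of 73.1 in OM-like and 8.70 to 40.8 CPM with a median of 27.1 in SGN-like sums (log2 fold change 1.55 ± 0.30 (SE), adjusted p = 0.000234). Cdh1 (0 to 44.8 CPM with a median of 16.9, 6.47 ± 1.41, adjusted p = 0.000673) and the endothelial cadherin Cdh5 (0 to 82.7 CPM with a median of 4.75, 6.30 ± 1.69, adjusted p = 0.00355) were called higher at low and uneven levels. The highest Cdh5 value was 1 plate, E15.5 replicate 2. Cdh6 was higher (2.26 ± 0.55, adjusted p = 0.00156), and Cdh4 (-4.71 ± 0.98, adjusted p = 0.000447), Cdh2 (-1.58 ± 0.32, adjusted p = 0.000345), Cdh12 (-5.47 ± 1.42, adjusted p = 0.00278) and Pcdh11x (-2.26 ± 0.76, adjusted p = 0.0165, and 0.0597 without E15.5 replicate 2) were lower. Pcdh17 was lower at -1.13 ± 0.47, adjusted p = 0.0478, a call lost without E16.5 replicates 1 and 2 (-1.34 ± 0.61, adjusted p = 0.0737) and with the plate as a block (-1.14 ± 0.51, adjusted p = 0.0687), and Cdh9 was not called (0.46 ± 1.49, adjusted p = 0.816). The call of Pcdh17 held in 3 of the 8 fits that left out 1 plate, with -0.65 ± 0.42, adjusted p = 0.206 without E14.5 replicate 1. Without E16.5 replicates 1 and 2, 7 members were higher and 6 lower, as with them, and no all-gene share is given for that fit.

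OM-like and glia-like sums differed in 14 of 28 members, 8 higher in OM and 6 lower, beside 20.2% of all genes (9.89% higher and 10.3% lower). The members' median was 0.30 and that of all genes -0.05. Cdh19 (-6.58 ± 1.29, adjusted p = 0.000939), Cdh20 (-6.27 ± 1.34, adjusted p = 0.00203), Pcdh1 (-2.52 ± 0.46, adjusted p = 0.000482) and Cdh2 (-1.90 ± 0.32, adjusted p = 0.000255) were lower in OM. Cdh2 was 22.8 to 159 CPM with a median of 60.3 there. Higher in OM were Cdh11 (4.14 ± 0.57, adjusted p = 2.90e-05), Pcdh18 (2.91 ± 0.61, adjusted p = 0.00168), Cdh13 (3.05 ± 0.91, adjusted p = 0.0215), and at low levels Cdh8 (6.21 ± 1.41, adjusted p = 0.00318), Cdh3 (5.50 ± 1.29, adjusted p = 0.00414) and Cdh18 (4.72 ± 1.46, adjusted p = 0.0256). The call of Cdh18 held in 3 of the 8 fits that left out 1 plate, those without 1 of the E16.5 plates (adjusted p up to 0.0720), and that of Cdh13 in 6, with losses without either E14.5 plate (up to 0.0800). Cdh8, a type II cadherin, was uneven among OM-like sums, 0 to 28.3 CPM, and at most 0.510 CPM in glia-like sums. Cdh9 (2.41 ± 1.44, adjusted p = 0.266) and Pcdh17 (0.07 ± 0.45, adjusted p = 0.940) were not called. Without E16.5 replicates 1 and 2, 9 members were higher and 6 lower, with no all-gene share given for that fit.

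**Figure D2:**
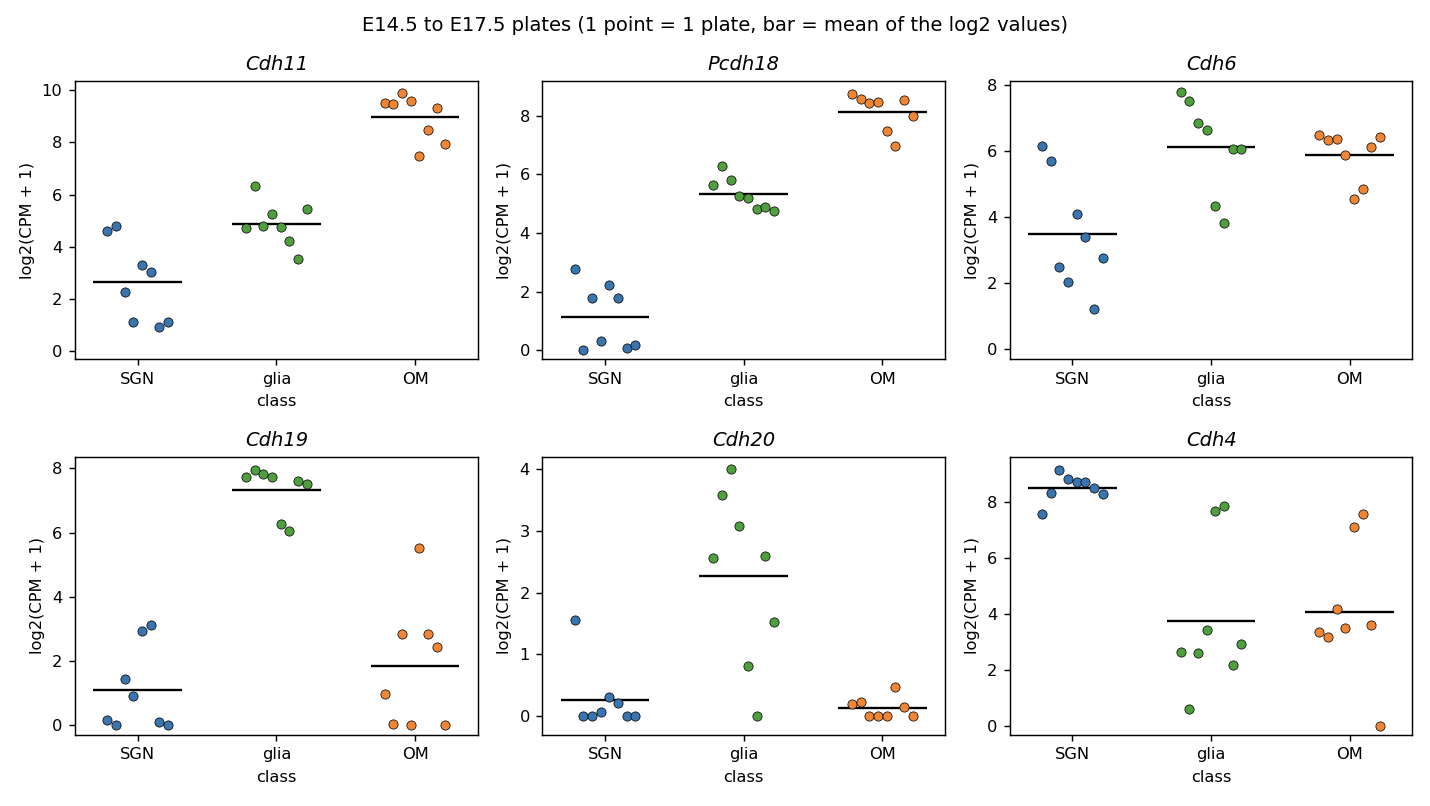
Levels of Cdh11, Pcdh18, Cdh6, Cdh19, Cdh20 and Cdh4 in SGN-like, glia-like and OM-like sums of the plates from E14.5 to E17.5, as log2(CPM + 1), where each point is 1 plate and each bar the mean of the log2 values. Cdh11 and Pcdh18 are highest in OM-like, Cdh19 in glia-like and Cdh4 in SGN-like sums, with 2 glia-like and 2 OM-like plates of E16.5 closer to the neurons for Cdh4.

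Hair cells, which SGNs contact, were compared with SGN-like cells at E18.5, where 30 cells from 2 plates were named IHC-like or OHC-like. They differed in 17 of 28 members, 5 higher and 12 lower, beside 52.2% of all genes (23.9% higher and 28.3% lower). The members' median was -1.90 and that of all genes -0.13. The families divided: 3 of 5 type I classical cadherins were higher in hair cells and none was lower, while 8 of 12 type II cadherins were lower and none was higher. Cdh1 was 459 and 186 CPM in hair cells and 0.406 and 0.552 CPM in SGN-like sums (log2 fold change 9.32 ± 0.59 (SE), adjusted p = 0.000186). Pcdh8, a delta-2 protocadherin regulated by activity in neurons, was 63.4 and 23.7 CPM in hair cells and 0.713 and 0.530 CPM in SGN-like sums (log2 fold change 6.08 ± 0.57 (SE), adjusted p = 0.000683). Cdh9, Pcdh20 and Cdh19 had no count in the cochlear hair cells of either plate. Taking 3 counts in the whole hair cell group as the lowest level that could be seen, they were at least 103-fold, 106-fold and 63.5-fold lower than in SGN-like sums. Counting all 69 HC-like cells of E18.5, 0 had a Cdh9 count, which allows a share of up to 4.35%. Cdh8 also had no count in hair cells, and was at least 4.33-fold lower. Cdh12 (-4.83 ± 0.48, adjusted p = 0.000832), Cdh6 (-4.42 ± 0.53, adjusted p = 0.00164), Pcdh10 (-4.32 ± 0.59, adjusted p = 0.00252) and Cdh10 (-3.26 ± 0.91, adjusted p = 0.0301) completed the largest differences. Pcdh17 was not called (-2.18 ± 1.04, adjusted p = 0.131), but passed the threshold with the plate as a block (-2.77 ± 0.92, adjusted p = 0.0362). SGN-like sums of E18.5 held glial markers at 2336 and 2341 CPM, against 568 and 574 CPM in IHC-like and 253 and 108 CPM in OHC-like sums. Without SGN-like cells holding glial RNA, Cdh6 was -3.02 ± 0.78, adjusted p = 0.0197 and Pcdh10 -1.66 ± 0.84, adjusted p = 0.147, and Cdh9 and Pcdh20 kept their calls. Cdh19, which was higher in glia than in neurons, did not pass the filter on low counts in that fit and was not tested. Other type II cadherins, among them Cdh6 and Cdh11, were also higher in glia than in neurons. The family counts are not given for the fit without glial RNA cells, so the part of glial RNA in them was not tested. With 2 plates in each group no plate could be left out.

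Between the hair cell types, the epithelial cadherins belonged to the OHC-like side. Of 13 members tested, 4 were higher in OHC-like and 2 in IHC-like cells, beside 7.38% of all genes (3.19% higher and 4.18% lower), from 5 and 12 IHC-like and 9 and 4 OHC-like cells. Cdh1 was 674 and 549 CPM in OHC-like and 98.9 and 58.1 CPM in IHC-like sums (log2 fold change 2.93 ± 0.26 (SE), adjusted p = 1.27e-05). Its neighbour Cdh3 was 58.4 and 74.6 CPM and 3.01 and 6.99 CPM (log2 fold change 3.55 ± 0.52 (SE), adjusted p = 0.000722). Cdh13 was 13.3 and 19.8 CPM in OHC-like sums and had no count in IHC-like sums, a difference of at least 30.05-fold (adjusted p = 0.00604). Pcdh9 was higher too (1.40 ± 0.37, adjusted p = 0.0347). Cdh2 was 303 and 202 CPM in IHC-like and 123 and 107 CPM in OHC-like sums (log2 fold change -1.17 ± 0.25 (SE), adjusted p = 0.0102), and Cdh11 was 57.3 and 38.1 CPM and 17.6 and 6.84 CPM (log2 fold change -1.95 ± 0.53 (SE), adjusted p = 0.0409). In all 6, which are called members, the plates of the 2 types did not overlap, and the share of all genes without overlap is not given here. Cdh4 was close in both (227 and 175 CPM and 202 and 182 CPM), and Cdh9 had no count in either type. Pcdh17 was 0 and 42.4 CPM in OHC-like and 0 and 1.93 CPM in IHC-like sums of replicates 1 and 2, did not pass the filter on low counts and was not tested.

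**Figure D3:**
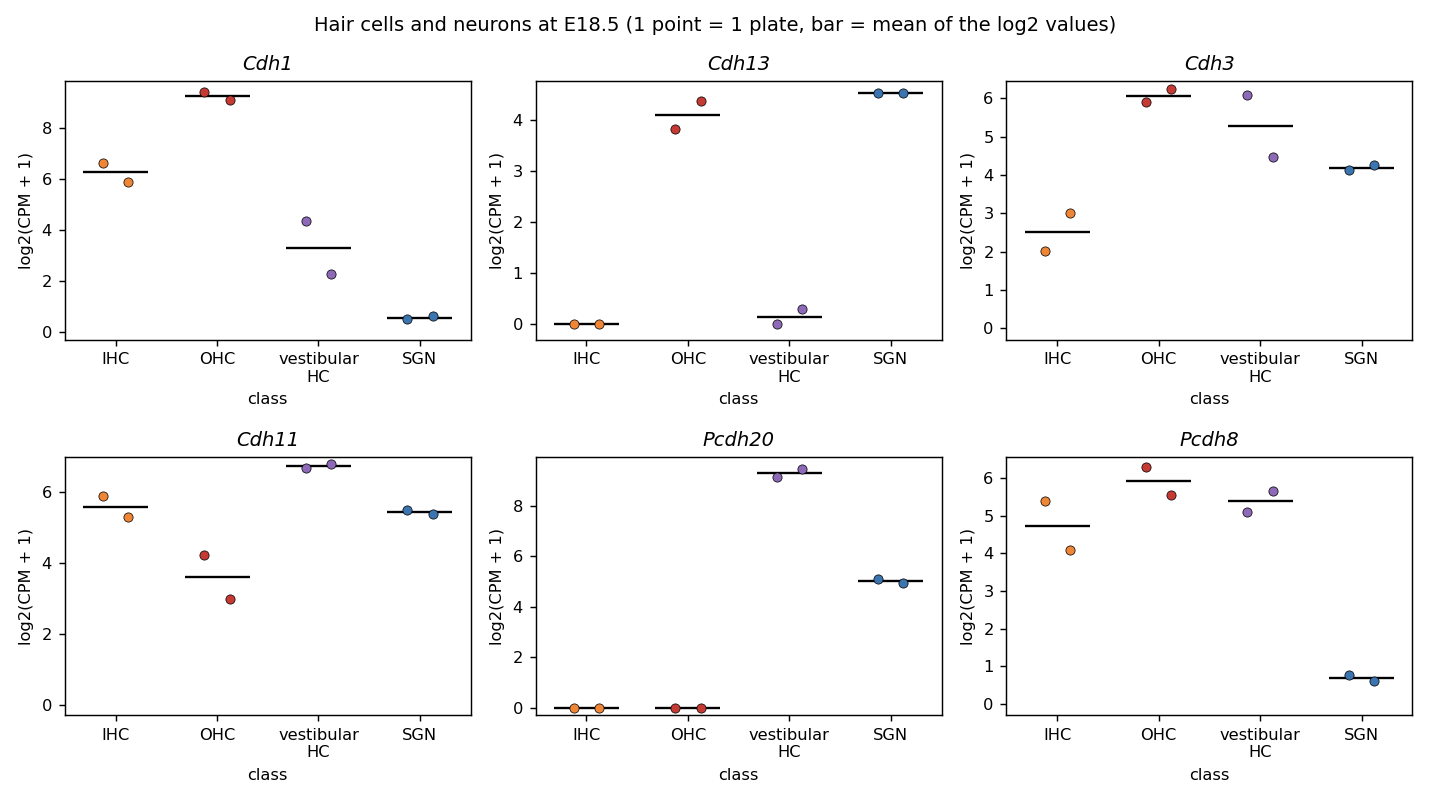
Levels of Cdh1, Cdh13, Cdh3, Cdh11, Pcdh20 and Pcdh8 at E18.5 in hair cell classes and SGN-like sums, as log2(CPM + 1), where each point is 1 of the 2 plates and each bar the mean of the log2 values. Cdh1 and Cdh3 are higher in OHC-like than in IHC-like sums, and Pcdh20 is at 0 in IHC-like and OHC-like sums.

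At E16.5, where the study places the first branching of the neuron types, Ic-like sums were compared with sums of the intermediate cells that precede Ia, Ib and II. Of 26 members tested, 4 were called, all higher in Ic-like cells, beside 2.54% of all genes (1.43% higher and 1.11% lower). The members' median was 0.54 and that of all genes 0.00432. Pcdh9 was 1406, 1143 and 535 CPM in Ic-like sums of replicates 1 to 3 and 73.1, 79.1 and 39.9 CPM in intermediate sums (log2 fold change 4.00 ± 0.40 (SE), adjusted p = 0.00186). Pcdh7 was 98.4, 111 and 92.0 CPM and 15.9, 16.3 and 4.48 CPM (log2 fold change 3.00 ± 0.40 (SE), adjusted p = 0.00707). Cdh7, a type II cadherin, was 10.5, 11.9 and 16.48 CPM and 0.261, 1.65 and 0.187 CPM (log2 fold change 4.07 ± 0.85 (SE), adjusted p = 0.0484), and Cdh4 was 617, 588 and 433 CPM and 314, 309 and 264 CPM (log2 fold change 0.91 ± 0.15 (SE), adjusted p = 0.0194). None of these 4 overlapped between the classes, in either plate series. They were picked as called members, and the share of all genes without overlap is not given here. Pcdh9 was called whichever replicate was left out, Pcdh7 in 2 of 3 such fits, and Cdh7 and Cdh4 in 1 of 3. With the plate as a block Cdh7 missed the threshold (4.56 ± 0.85, adjusted p = 0.0747). Without E16.5 replicate 3, 16 members were called, with no all-gene share given for that fit. The SE of Pcdh7 was 0.126 there, against 0.40 with all 3 plates. In replicates 1 and 2, Ic-like sums held more glial markers (846 and 696 CPM, against 152 and 86.7 CPM in intermediate sums) and more OM markers (417 and 236 CPM, against 43.3 and 24.9 CPM), and in replicate 3 the values were closer (glial 58.3 against 46.3 CPM, OM 67.4 against 20.3 CPM). Without cells holding glial RNA the same 4 members were called, with Pcdh9 at 3.96 ± 0.36, adjusted p = 0.000729, Pcdh7 at 2.97 ± 0.40, adjusted p = 0.00483, Cdh7 at 4.00 ± 0.83, adjusted p = 0.0382 and Cdh4 at 0.92 ± 0.15, adjusted p = 0.0152. The part of the OM markers was not tested. Cdh9 was low in both classes (-0.44 ± 0.71, adjusted p = 0.889). Pcdh17 was 125, 129.7 and 17.7 CPM in Ic-like sums, with replicate 3 far below the others, and 31.5, 29.6 and 19.4 CPM in intermediate sums (1.78 ± 0.59, adjusted p = 0.241). The members summed to 2227 ± 660 CPM in Ic-like and 818 ± 32.6 CPM in intermediate sums (SD, n = 3 plates each).

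The 4 neuron types were compared at E18.5 and P3 with the stage as a covariate. The types differed in the members that were high: Pcdh20, Cdh9 and Cdh22 in Ia-like, Cdh9 with little Pcdh20 in Ib-like, Cdh7 in Ic-like, and Pcdh20 and Cdh13 in II-like neurons, while Pcdh9 was high in Ic-like and II-like sums at E18.5 (290.2 and 293 CPM and 331 and 279 CPM). Cdh9 was 62.1 and 61.3 CPM at E18.5 and 139.3 and 149 CPM at P3 in Ia-like sums. Ib-like sums held 25.001 and 43.5 CPM and 123 and 123 CPM. In Ic-like sums it was 8.70 and 4.26 CPM and 17.8 and 14.4 CPM, and in II-like sums 12.1 and 8.44 CPM and, in 1 plate, 17.6 CPM. At both stages Ia-like and Ib-like plates lay above all Ic-like and II-like plates. The Ic-like minus Ia-like difference was log2 fold change -3.23 ± 0.25 (SE), adjusted p = 3.23e-06, and the Ib-like minus Ia-like difference missed the threshold (-0.53 ± 0.23, adjusted p = 0.344). Within each stage, though, the Ia-like plates lay above the Ib-like ones. The study also describes Cdh9 in Ia and Ib neurons as higher in Ia. All 85 Ia-like cells of P3 had a Cdh9 count, 88.4% and 91.3% of Ib-like cells did after thinning, and 30.6% and 25.9% of Ic-like cells.

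Pcdh20, a protocadherin outside the delta groups, divided the types along another line. In Ia-like sums it was 68.0 and 42.1 CPM at E18.5 and 138 and 165.1 CPM at P3, and in II-like sums 127 and 179.6 CPM and 243 CPM. Ib-like sums held 5.17 and 8.66 CPM and 5.51 and 5.48 CPM, and Ic-like sums 11.2 and 4.11 CPM and 2.03 and 2.03 CPM. The low and the high types did not overlap. Pcdh20 was lower in Ic-like (log2 fold change -4.54 ± 0.59 (SE), adjusted p = 0.000268) and Ib-like (log2 fold change -4.07 ± 0.56 (SE), adjusted p = 0.000853) than in Ia-like sums, and higher in II-like sums than in the mean of the type I neurons (log2 fold change 3.61 ± 0.39 (SE), adjusted p = 1.34e-05). At P3, 93.0% and 92.9% of Ia-like cells had a Pcdh20 count after thinning, against 10.1% and 13.0% of Ib-like and 3.70% and 3.70% of Ic-like cells. None of the 30 cochlear hair cells had one, which allows a share of up to 10.0% there.

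Ic-like and Ia-like sums differed in 7 of 29 members, 4 higher and 3 lower in Ic-like, beside 5.82% of all genes (2.77% higher and 3.05% lower). Cdh22, a type II cadherin, was 39.1 and 25.7 CPM at E18.5 and 14.9 and 8.49 CPM at P3 in Ia-like sums, and 1.65 and 2.34 CPM and 1.51 and 0.756 CPM in Ic-like sums (log2 fold change -3.69 ± 0.42 (SE), adjusted p = 6.76e-05). Cdh7 was the reverse, 26.1 and 18.1 CPM and 20.4 and 11.7 CPM in Ic-like against 1.73 and 5.15 CPM and 1.18 and 2.53 CPM in Ia-like sums (log2 fold change 2.96 ± 0.47 (SE), adjusted p = 0.00129). The groups did not overlap for either gene. Pcdh9 (1.24 ± 0.24, adjusted p = 0.00518), Pcdh7 (1.21 ± 0.21, adjusted p = 0.00234) and Cdh2 (0.84 ± 0.15, adjusted p = 0.00234) were higher in Ic-like sums. Of the 4 fits that left out 1 plate, the call of Pcdh9 held in 1 (adjusted p up to 0.115), that of Cdh2 in 2 (up to 0.0581) and that of Pcdh7 in 3 (up to 0.0664, without E18.5 replicate 1). Pcdh9 lost its call without either E18.5 plate or P3 replicate 1, and Cdh2 without either E18.5 plate. Pcdh17 missed the threshold (1.90 ± 0.56, adjusted p = 0.0639) and passed it with the plate as a block (1.86 ± 0.50, adjusted p = 0.0484). Without cells holding glial RNA, 4 members were called, with no all-gene share given for that fit. Among them were Cdh9 (-3.19 ± 0.33, adjusted p = 0.000255), Cdh22 (-4.18 ± 0.79, adjusted p = 0.0130) and Pcdh7 (2.50 ± 0.44, adjusted p = 0.00898), and Pcdh20 was -3.67 ± 1.21, adjusted p = 0.176.

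Ib-like and Ia-like sums differed in 3 of 29 members, all lower in Ib-like, beside 2.71% of all genes (1.26% higher and 1.45% lower). These were Pcdh20, Cdh22 (log2 fold change -1.87 ± 0.39 (SE), adjusted p = 0.0168) and Cdh4 (log2 fold change -1.03 ± 0.26 (SE), adjusted p = 0.0488). Cdh4 was 132 and 112 CPM and 20.6 and 21.5 CPM in Ib-like and 182 and 174 CPM and 58.3 and 60.8 CPM in Ia-like sums, without overlap within a stage. The call of Cdh22 was lost without either E18.5 plate (adjusted p up to 0.219). That of Cdh4 was lost whichever plate was left out, and with the plate as a block (-1.04 ± 0.27, adjusted p = 0.0684). Without cells holding glial RNA none of the 3 passed the threshold, with Pcdh20 at -4.20 ± 1.19, adjusted p = 0.167. In that fit 6 members had an unadjusted p under 0.05, and no all-gene share is given beside them. Pcdh17 was 0.20 ± 0.55, adjusted p = 0.938.

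II-like sums differed from the mean of the type I neurons in 10 of 29 members, 6 higher and 4 lower, beside 19.6% of all genes (8.96% higher and 10.6% lower). Pcdh17 was 51.5 and 25.96 CPM at E18.5 and 47.2 CPM at P3 in II-like sums, while at P3 no type I sum exceeded 5.34 CPM (log2 fold change 2.88 ± 0.44 (SE), adjusted p = 0.000324). At E18.5 the II-like plates overlapped with the Ic-like ones (32.8 and 40.6 CPM). Cdh13 was 34.8 and 31.4 CPM and 51.7 CPM in II-like sums, above all type I plates of the same stage (log2 fold change 2.31 ± 0.50 (SE), adjusted p = 0.00410). Pcdh10 (1.09 ± 0.24, adjusted p = 0.00434), Pcdh9 (0.74 ± 0.21, adjusted p = 0.0210) and Cdh11 (0.69 ± 0.18, adjusted p = 0.0153) were also higher. For Pcdh9 the II-like and Ic-like plates of E18.5 overlapped. For Cdh11 the II-like and Ib-like plates overlapped (52.5 to 62.9 and 25.2 to 59.6 CPM over both stages). Of the 4 fits that left out 1 plate, the call of Pcdh9 held in 1 (adjusted p up to 0.173), that of Pcdh10 in 2 (up to 0.0688), and those of Cdh11 (up to 0.160, without E18.5 replicate 2) and Cdh13 (up to 0.0635, without P3 replicate 1) in 3. Pcdh9 lost its call without any plate but P3 replicate 2, and Pcdh10 without either E18.5 plate. Pcdh10 and Cdh11 were above the neurons in glia-like sums too, and glial markers were 3397 and 2592 CPM in the II-like sums of E18.5 against 1355 to 3040 CPM in the type I sums. The part of glial RNA in these members was not tested. Lower in II-like sums were Cdh7 (-2.06 ± 0.49, adjusted p = 0.00808), Pcdh19 (-1.77 ± 0.39, adjusted p = 0.00481), Cdh9 (-1.57 ± 0.26, adjusted p = 0.000489) and Pcdh11x (-1.03 ± 0.20, adjusted p = 0.00184). Over both stages II-like plates overlapped with Ia-like ones for Cdh7 (0.453 to 3.39 and 1.18 to 5.15 CPM) and Pcdh19 (3.04 to 5.84 and 1.71 to 15.9 CPM). For Cdh9 they overlapped with Ic-like ones (8.44 to 17.6 and 4.26 to 17.8 CPM). Only Pcdh11x was below every type I plate. The calls of Cdh7 and Pcdh19 held in 2 of the 4 fits, with adjusted p up to 0.0734 and 0.0766, and both were lost without E18.5 replicate 2. The P3 value rests on 18 cells of 1 plate.

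**Figure D4:**
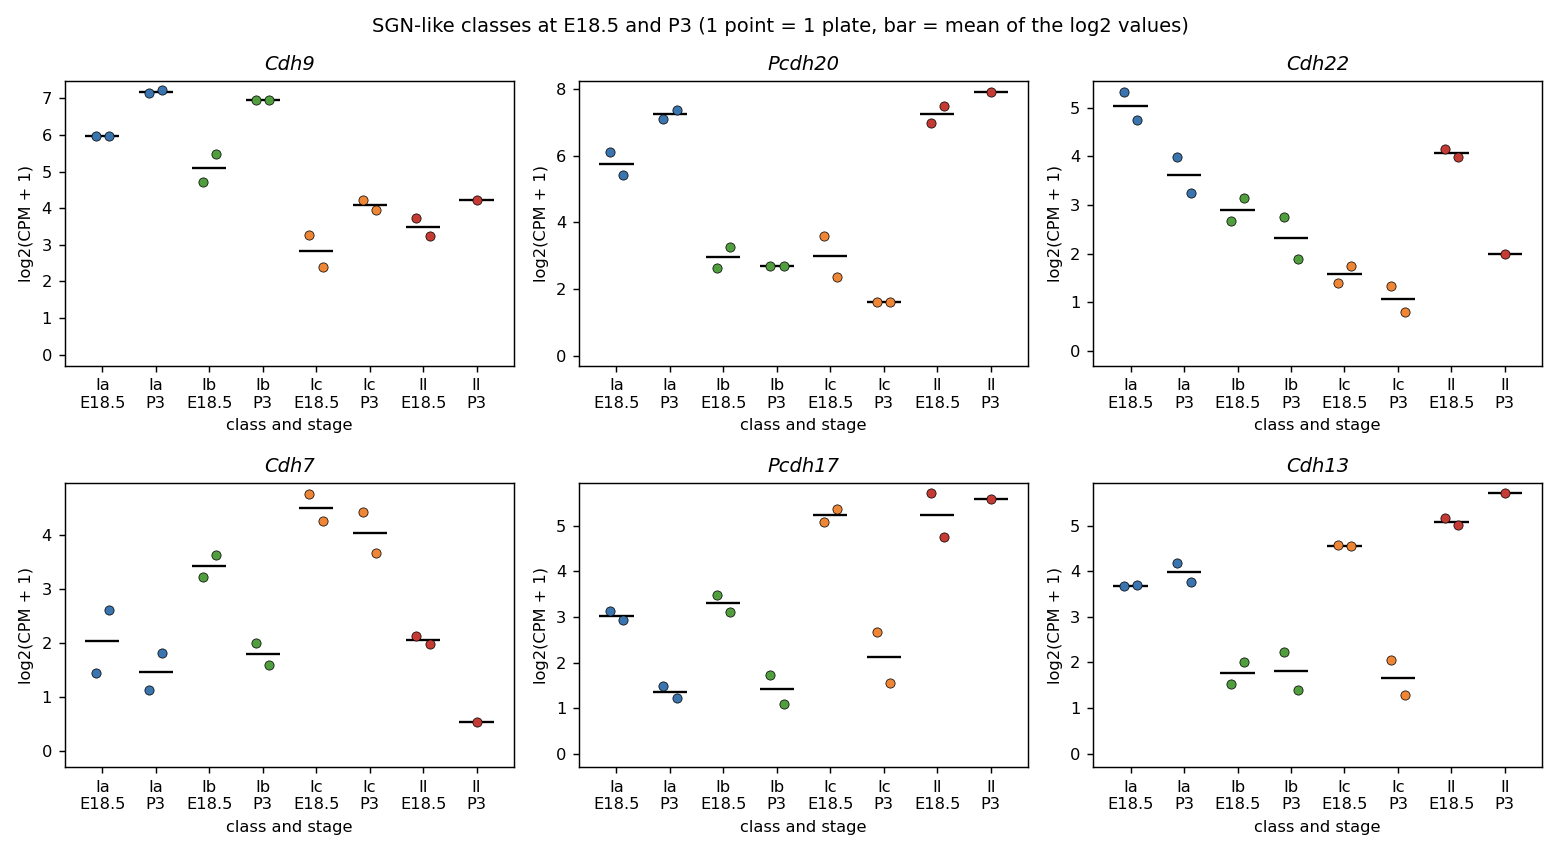
Levels of Cdh9, Pcdh20, Cdh22, Cdh7, Pcdh17 and Cdh13 in the 4 neuron types at E18.5 and P3, as log2(CPM + 1), where each point is 1 plate and each bar the mean of the log2 values. Cdh9 is high in Ia-like and Ib-like, Pcdh20 in Ia-like and II-like, and Cdh7 in Ic-like sums.

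Whether the change from E18.5 to P3 differed between Ic-like and Ia-like neurons was tested as an interaction. Of 29 members 2 were called, both with the lower change in Ic-like, beside 0.423% of all genes (0.254% higher and 0.169% lower). Cdh13 went from 22.8 and 22.5 CPM to 3.13 and 1.43 CPM in Ic-like and from 11.7 and 12.1 CPM to 17.2 and 12.6 CPM in Ia-like sums, a difference of -3.63 ± 0.53, adjusted p = 0.0257 on the log2 scale. Pcdh20 went from 11.2 and 4.11 CPM to 2.03 and 2.03 CPM in Ic-like and from 68.0 and 42.1 CPM to 138 and 165.1 CPM in Ia-like sums, a difference of -3.32 ± 0.55, adjusted p = 0.0432. Both calls were lost without E18.5 replicate 1 (Cdh13 -3.60 ± 0.83) or replicate 2 (Cdh13 -3.65 ± 0.83), and also without cells holding glial RNA. Cdh9 (0.13 ± 0.36, adjusted p = 0.962) and Pcdh17 (-1.17 ± 0.64, adjusted p = 0.635) were not called, with Cdh9 higher at P3 in both types.

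Within single SGN-like cells, members were found together and apart. At P3, 28.0% and 19.2% of cells had counts of both Cdh9 and Pcdh20, 43.8% and 44.8% of Cdh9 alone and 4.03% and 2.40% of Pcdh20 alone, after thinning to 100000 counts. Cells with both Cdh9 and Cdh7 made up 4.84% and 7.20% at P3, and cells with Cdh9 and Pcdh17 8.33% and 4.00%. These shares are descriptions of cells of the same plates.

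The proteins that cadherins work with were taken as a list of 26 genes. Of its 17 catenin and junction genes, 3 were higher and 6 lower at E16.5 than at E14.5, beside 8.82% and 6% of all genes, and 8 of 17 were lower and none higher at P3 than at E18.5 in SGN-like sums, beside 12% and 12.8%. At that last step Jup, plakoglobin, changed by -2.34 ± 0.20, Ctnnd1, p120-catenin, by -1.40 ± 0.12 and Arvcf, its relative, by -1.36 ± 0.15 (log2 fold changes ± SE). With no scaling between sums the median of all genes lies 0.286 lower in this comparison. Ctnna2, the neuronal alpha-catenin, was lower outside neurons, by -6.27 ± 1.21 in glia-like, -6.27 ± 1.21 in OM-like and -4.49 ± 0.35 in cochlear hair cells, and Ctnna1, the general alpha-catenin, was higher in glia (2.65 ± 0.27). In hair cells 9 of 17 were higher and 3 lower than in SGN-like sums, beside 23.9% and 28.3% of all genes, and the higher ones included Mllt4, afadin (3.03 ± 0.12), and Pvrl2, nectin 2 (2.06 ± 0.12). Among neuron types, Pkp4 was higher in II-like (2.04 ± 0.20) and Jup higher in Ic-like than in Ia-like sums (1.41 ± 0.29). Of the 9 genes of the WAVE complex and related protocadherin partners, 3 were higher and 1 lower from E18.5 to P3, where the same all-gene shares apply, and none was called between Ic-like and intermediate cells at E16.5 or between Ib-like and Ia-like neurons. In these latter comparisons, with 2.54% and 2.71% of all genes called, none of the 17 catenin and junction genes was called either.

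Some members contributed little. Cdh16, Cdh17, Cdh26 and Pcdh12, a kidney cadherin, an intestinal cadherin, an epithelial cadherin and an endothelial protocadherin, reached at most 1.28, 3.97, 24.3 and 11.4 CPM in any class sum. Cdh5 was at most 1.56 CPM in SGN-like sums. In every SGN-like plate of a stage, 18 members reached 1 CPM at E14.5 and E15.5, 21 at E16.5, 24 at E17.5, 25 at E18.5 and 26 at P3, and glial RNA rose over the same plates.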

How the data were processed

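Single cells were sequenced by Smart-seq2. Per the labels and the study's methods, the authors aligned reads with STAR to mm10, kept uniquely mapped reads, counted them with featureCounts and deposited raw counts per gene and cell. The submitters' processing notes also name Scanpy. The annotation and the use of strand in counting are not given in the sources used here. From these counts, wells with more than 1000 genes and under 5% ERCC spike-in counts were kept (4226 of 4608), and 1 other plate of the table was not used. Cells were clustered with scanpy 1.11.5 (2000 variable genes without the members and without the study's glial code genes, 30 components, 30 neighbours, Leiden resolution 1) and named from at least 3 markers. Wells were sorted as single cells and no doublet caller was run here, whereas the study removed cells lying far from their cluster as doublets. An alternative left out the top 5% of cells by counts.

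Counts were summed by class and plate (at least 5 cells, or 3 hair cells) and tested with edgeR 4.0.16 in R 4.3.3 (TMM scaling, filterByExpr, quasi-likelihood F test), with Benjamini-Hochberg adjustment over all genes and calls at adjusted p under 0.05. The sums of all stages or classes of a comparison shared 1 estimate of the spread. The SE is the absolute log2 fold change divided by the square root of F. Levels are CPM of the sums without further scaling, and per kb they use merged exon lengths of the GENCODE annotation of GRCm38. For the share of cells with a count, each cell was thinned to 100000 counts. Limits from 0 counts use 3 counts and cover counting error only. Plates held 80997594 to 303906928 counts. Tests were tried on simulated data. The text names the members called in each comparison (at most 10 by absolute log2 fold change), the 5 highest per kb in a class, and Cdh9 and Pcdh17 wherever tested. Others were chosen after their values were seen. The members and lists were chosen with earlier results of these data known.

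Classes of 1 plate come from the same pooled animals, so plates pair them. Deviations of same-plate sums correlated by -0.152 to 0.513 in the comparisons of SGN-like, glia-like and OM-like sums (21 pairs), and by 0.160 to 0.226 at E16.5 (3 pairs). Alternatives were DESeq2 1.42.0, RLE or no scaling, no filter, each plate left out, the plate as a replicate block, other cell filters and clusterings, and cells with glial RNA left out.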

Additional observations from a re-analysis of the deposited data

Results flagged for a closer look

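The change from E18.5 to P3 differed between Ic-like and Ia-like neurons for Cdh13 and Pcdh20, by the interaction test of edgeR. For Cdh13 the difference of the log2 changes was -3.63 (adjusted p = 0.0257) and for Pcdh20 it was -3.32 (adjusted p = 0.0432). Both calls were lost when either E18.5 plate was left out, and also when cells holding glial RNA were left out. Further alternatives that changed the number of members called are listed below.

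Pcdh20 was at 629 ± 105 CPM (SD, n = 2 plates, 26 cells) in the vestibular HC-like cells of E18.5, a class that entered no comparison, while the IHC-like and OHC-like sums of the same plates had no Pcdh20 count. The difference between these classes was not tested.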

How the results depend on the processing

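Among single members, 1520 of the alternative fits kept direction and side of the threshold, 204 lost the call, 10 gained it and 21 turned direction. The cause of the changes listed here was not tested. Counts of members called moved by over 1.5 times as follows, and the shares of all genes called in these alternative fits are not given beside them. With DESeq2 they were 11 for E16.5 against E14.5 (6 in the edgeR fit), 7 for E18.5 against E16.5 (4), 8 for Ib-like against Ia-like (3) and 4 for the interaction (2). With no filter they were 11, 9 and 7 for E16.5 against E14.5, Ib-like against Ia-like and the interaction. With the cell filter of the reporting summary, and also with the glial code genes kept as features, they were 0 for E18.5 against E16.5, 5 for P3 against E18.5 (9) and 2 for Ic-like against intermediate cells (4), and the interaction had 1 under that filter. These 2 alternatives put glia cells into the SGN-like sum of E16.5 replicate 3, whose glial markers rose from 34.7 to 4174 and 3986 CPM. With glial RNA cells left out, 4 members were called for Ic-like against Ia-like (7), 0 for Ib-like against Ia-like (6 with unadjusted p under 0.05) and 0 for the interaction (4 with unadjusted p under 0.05). The interaction had 1 without the top 5% of cells and 1 with the 53 unnamed P3 cells that scored as Ia taken as Ia-like. That naming, the fits with no scaling, and the leaving out of an E14.5 cluster and of both E16.5 plates were chosen after seeing the data. The E14.5 cluster, named by Prdm12, held 15 of the 130 SGN-like cells of E14.5, which all entered the main sums. Leaving out 1 plate gave 2 to 9 members for E16.5 against E14.5, 0 to 5 for E18.5 against E16.5, 3 to 11 for P3 against E18.5, 17 to 21 for glia-like and 12 to 15 for OM-like against SGN-like, 11 to 14 for OM-like against glia-like, 1 to 16 for Ic-like against intermediate cells, 6 to 11 for II-like against type I, 4 to 10 for Ic-like and 1 to 6 for Ib-like against Ia-like, and 0 to 13 for the interaction. With the plate as a replicate block the counts were 19 for glia-like against SGN-like (21), 19 for hair cells (17), 3 for Ic-like against intermediate cells (4), 8 for Ic-like against Ia-like (7) and 2 for Ib-like against Ia-like (3), and the block changed no other count. With no scaling between sums the share of higher calls among all genes moved from 51.6% to 26.9% for P3 against E18.5 and from 45.7% to 59.5% for II-like against type I.

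With glial RNA cells left out, 2 members that were called turned direction: Cdh11 for E18.5 against E16.5 (2.86) was -1.36, and Cdh1 for P3 against E18.5 (4.39) was -0.41. The other values that turned were not called. Pcdh17 was 4.995 in the interaction with glial RNA cells left out. Cdh9 in OM-like against SGN-like sums was -0.12 with the replicate block, -1.62 without the top 5% of cells and -1.23 to 1.31 with 1 plate left out. Pcdh17 in OM-like against glia-like sums was -0.021 at Leiden resolution 2 and -0.12 to 0.36 with 1 plate left out. Pcdh17 in Ib-like against Ia-like sums was -0.13 at Leiden resolution 2 and -0.054 with the P3 cells taken as Ia-like. Cdh9 in Ic-like against intermediate cells was -1.21 to 0.25 with 1 plate left out. Cdh9 in the interaction was -0.17 with the cell filter, -0.48 with the glial code genes kept, -0.46 at Leiden resolution 2, -0.012 with the P3 cells taken as Ia-like, and -0.30 to 0.69 with 1 plate left out. Hair cell comparisons, with 2 plates a group, allowed no plate to be left out.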
